A study of Homo sapiens with 10 samples.

Results

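The genes described here are 10 genes of bone morphogenetic protein (BMP) signaling, namely the ligands BMP2, BMP4 and BMP7, the secreted antagonists FST, NOG and CHRD, the membrane pseudoreceptor BAMBI, and the target genes ID1, ID2 and ID3. They were taken by symbol from the 55841 Ensembl identifiers of a table of fragment counts, and all 10 were found. The rule uses no measured value, but the genes were chosen with earlier results of these data known. The counts come from bulk RNA-seq of a human embryonic stem cell (hESC) line grown as a feeder-free culture on matrigel in mTeSR1, a defined medium. The labels name the line HES9, whereas the study's text names WA09 cells for its transcriptome work, and which name applies was not resolved here. A general population, which was not sorted, was compared with the HHH fraction, cells isolated by flow cytometry for the highest levels of the surface antigens GCTM-2, CD9 and EPCAM. Each population had 5 libraries, of which batch 1 held 2 and batch 2 held 3. No allele or transgene is given in the labels. The design text mentions protein kinase C inhibitors, and no label assigns such a treatment to any of these libraries. HHH cells went through dissociation, antibody labeling and sorting, so that these steps and the antigen level cannot be told apart. Nothing states that the replicates came from separate cultures, and p-values then measure only the spread between these libraries, which may be technical.

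BMP ligands are secreted dimers that bind a complex of type I and type II receptor kinases, which phosphorylate SMAD1, SMAD5 and SMAD9. These enter the nucleus with SMAD4 and induce target genes, among them the ID genes, whose products hold basic helix-loop-helix transcription factors away from DNA. Noggin and chordin bind BMPs outside the cell, and follistatin binds activins tightly and some BMPs more weakly. In cultures of hESC, added BMP4 is known to drive differentiation toward extraembryonic cell types, and BMP antagonists are used to favor neural differentiation.

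In HHH, 5 of the 10 genes were lower than in the general population by more than 1.5-fold at an adjusted p under 0.05, namely FST (2.81-fold), CHRD (2.10-fold), BMP4 (1.75-fold), BMP2 (1.72-fold) and ID1 (1.51-fold). Among all 23552 genes tested, 2.34% were lower and 0.637% higher by this rule, which is what "called" means below. BAMBI passed the adjusted p alone and was 1.33-fold higher. With it, 5 genes passed the test as lower and 1 as higher, against 3.89% and 1.94% of all genes. BMP7, NOG, ID2 and ID3 did not pass. The median log2 fold change was -0.44 over the 10 genes and 0.02 over all genes tested. Unless another method is named, tests used edgeR's quasi-likelihood F test with batch as a term, which fits of 1 batch alone did not have. The p-values were adjusted over all genes tested in a fit by the Benjamini-Hochberg method. All levels by library are CPM, counts scaled to library sizes adjusted by the TMM method.

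**Figure D1:**
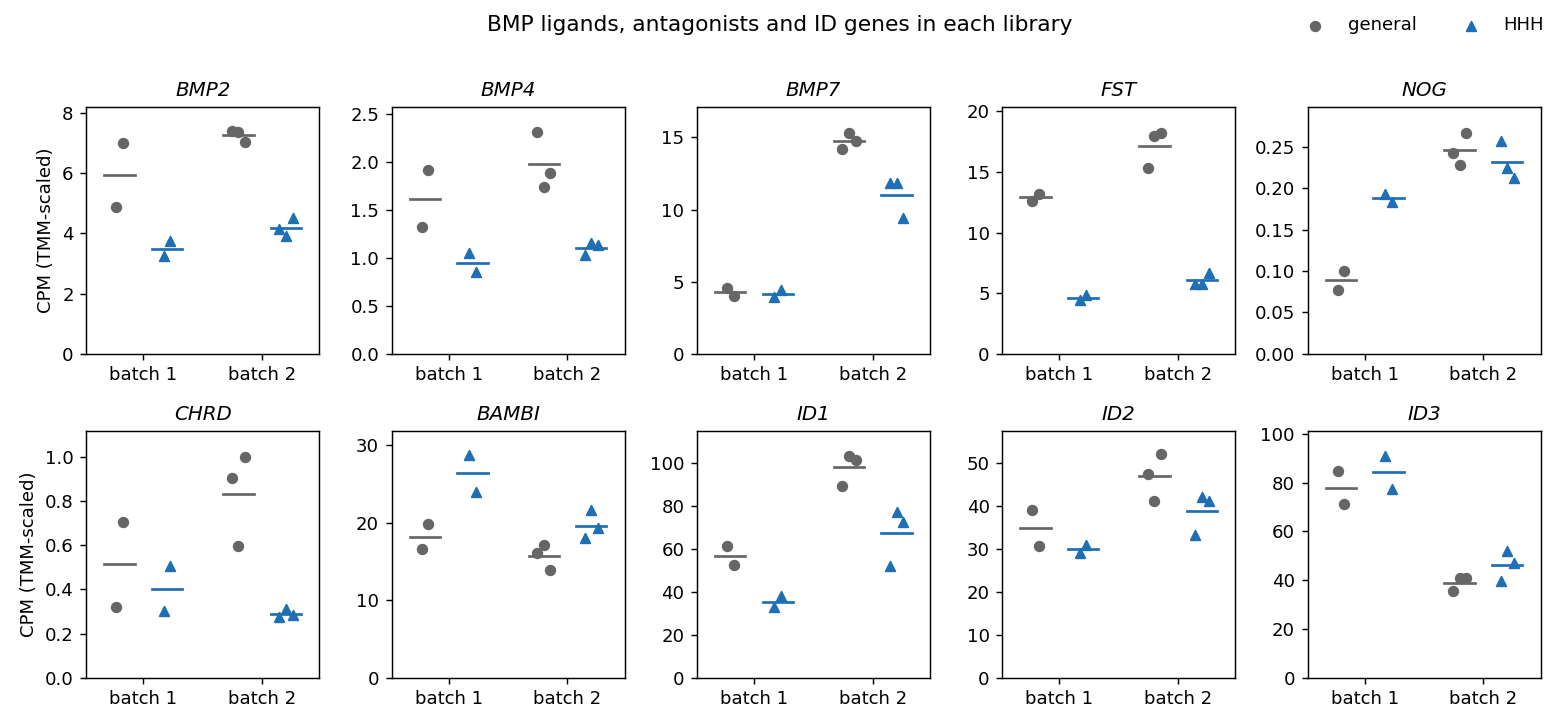
CPM of each of the 10 genes (vertical axis, linear, from 0) in the 5 general (grey circles) and 5 HHH libraries (blue triangles), by batch, with a line at the mean of each population in a batch. The HHH points lie below all general points of their batch for BMP2, BMP4, FST and ID1, and above them for BAMBI.

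Total counts ran from 47242595 to 78503395 per library, at which 3 counts stood for 0.0460 to 0.0687 CPM, and this limit covers counting error only. All 8 pluripotency markers examined, among them POU5F1 and NANOG, exceeded 1 CPM in both populations, and 2 of them passed the test without reaching the fold limit, NANOG as higher (log2 fold change 0.44, adjusted p = 0.00572 by edgeR) and SOX2 as lower (-0.26, adjusted p = 0.0375). The transcripts of the sort antigens EPCAM and CD9 had log2 fold changes of 0.42 (adjusted p = 0.00645 by edgeR) and 0.29 (adjusted p = 0.195), and GCTM-2 is an epitope with no single transcript to compare. For CD9 the value was -0.10 in batch 1 (adjusted p = 0.811) and 0.54 in batch 2 (adjusted p = 0.00277), and the difference between batches did not pass (adjusted p = 0.105). Libraries of the same population and batch differed by more than sampling noise, with a chi-square of 5.77 to 48.7 times its degrees of freedom, and none was counted as a duplicate. In bulk samples, fewer cells that express a gene and less RNA per cell cannot be told apart.

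BMP2 (ENSG00000125845, chromosome 20, 6767686 to 6780246, plus strand; coordinates here are those of GENCODE 44 on GRCh38) encodes a BMP ligand. Its level was 4.87 and 7.01 CPM in the general libraries of batch 1 and 7.40, 7.37 and 7.04 CPM in those of batch 2. In HHH it was 3.24 and 3.75 CPM in batch 1 and 4.16, 3.91 and 4.51 CPM in batch 2. Every HHH library lay below every general library, of either batch. BMP2 fell by 0.78 on the log2 scale (SE 0.11, adjusted p = 0.000636 by edgeR).

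BMP4 (ENSG00000125378, chromosome 14, 53949736 to 53958761, minus strand) encodes the ligand most used to differentiate hESC. General libraries had 1.32 and 1.91 CPM in batch 1 and 2.31, 1.74 and 1.88 CPM in batch 2. HHH libraries had 1.05 and 0.847 CPM in batch 1 and 1.03, 1.16 and 1.13 CPM in batch 2. The lowest general library (1.32 CPM) exceeded the highest HHH library (1.16 CPM). BMP4 fell by 0.81 on the log2 scale (SE 0.15, adjusted p = 0.00572 by edgeR), close to the change of BMP2.

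BMP7 (ENSG00000101144, chromosome 20, 57168753 to 57266641, minus strand), a ligand of another subgroup of the family, differed more between batches than between populations. In batch 1 the general libraries had 4.55 and 4.01 CPM and the HHH libraries 3.92 and 4.42 CPM, and these ranges overlapped. In batch 2 the general libraries had 14.2, 15.3 and 14.8 CPM, and the HHH libraries 11.9, 11.8 and 9.40 CPM, with no overlap. Over both batches the log2 fold change was -0.28 (SE 0.11, adjusted p = 0.14 by edgeR), which did not pass. Within batch 2 alone it was -0.43 (SE 0.11, adjusted p = 0.0198) and in batch 1 alone -0.04 (SE 0.19, adjusted p = 0.95), and the test of the difference between batches did not pass (adjusted p = 0.295).

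FST (ENSG00000134363, chromosome 5, 53480626 to 53487134, plus strand), which encodes follistatin, changed most among the 10. General libraries had 12.6 and 13.2 CPM in batch 1 and 15.3, 18.0 and 18.2 CPM in batch 2. HHH libraries had 4.42 and 4.83 CPM in batch 1 and 5.75, 5.72 and 6.70 CPM in batch 2. The highest HHH library was thus at 6.70 CPM and the lowest general library at 12.6 CPM. FST fell by 1.49 on the log2 scale (SE 0.088, adjusted p = 5.68e-07 by edgeR), and it was the only one of the 10 called in each batch alone. Since FST changed most, the 250 bases before its start are shown (GRCh38.p14, RefSeq, chr5:53480379-53480628, plus strand, 5′ to 3′):
FST: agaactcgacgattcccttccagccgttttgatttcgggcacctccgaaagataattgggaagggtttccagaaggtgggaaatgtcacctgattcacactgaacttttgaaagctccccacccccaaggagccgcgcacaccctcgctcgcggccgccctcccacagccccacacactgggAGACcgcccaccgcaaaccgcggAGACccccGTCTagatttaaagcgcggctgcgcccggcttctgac
Capitals mark GTCT on either strand (AGAC on the other), the short box that SMAD3 and SMAD4 are known to bind. A search was also made for GGCGCC, which reads the same on both strands and is known as a GC-rich site of SMAD1 and SMAD5, and the letters of these motifs cannot overlap. FST had 3 matches to GTCT and none to GGCGCC in this window. Of 35116 RefSeq promoters, 77.5% held GTCT and 16.4% held GGCGCC in the same 250 bases. A match is a description of letters, not a bound site. RefSeq windows were at hand for 7 of the 10 genes.

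CHRD (ENSG00000090539, chromosome 3, 184380054 to 184390736, plus strand) encodes chordin and was near the lower limit of the counts, with 14 to 60 counts per library. General libraries had 0.322 and 0.704 CPM in batch 1 and 0.903, 0.597 and 1.00 CPM in batch 2. HHH libraries had 0.300 and 0.504 CPM in batch 1, where the populations overlapped, and 0.275, 0.311 and 0.283 CPM in batch 2, where they did not. The log2 fold change was -1.07 (SE 0.30, adjusted p = 0.0480 by edgeR). This call held in 2 of the 10 fits with 1 library left out (without general batch 1 replicate 1 or HHH batch 1 replicate 3), and in the other 8 the adjusted p ran from 0.066 to 0.135. In batch 1 alone the log2 fold change was -0.35 (SE 0.49, adjusted p = 0.813) and in batch 2 alone -1.53 (SE 0.27, adjusted p = 0.0034), while the difference between batches did not pass (adjusted p = 0.26). Of its exonic bases, 5.44% also lie in exons of THPO, whose reads may have been counted for it. The upstream bases of CHRD are shown as the GC-rich counterpart to those of FST, in the same notation with GGCGCC in capitals too (chr3:184379804-184380053, plus strand):
CHRD: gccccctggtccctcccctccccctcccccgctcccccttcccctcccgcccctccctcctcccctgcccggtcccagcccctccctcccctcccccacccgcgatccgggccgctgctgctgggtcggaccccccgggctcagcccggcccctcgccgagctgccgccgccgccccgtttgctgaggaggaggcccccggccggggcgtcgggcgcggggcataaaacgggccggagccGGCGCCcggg
GGCGCC occurred 1 time and GTCT did not occur. G and C made up 81.6% of these bases, compared with 60.0% in FST.

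NOG (ENSG00000183691, chromosome 17, 56593699 to 56595611, plus strand), which encodes noggin, was scarcely detected, with 5 to 16 counts per library. Its level was 0.0766 and 0.101 CPM in the general libraries of batch 1 and 0.243, 0.228 and 0.267 CPM in those of batch 2. HHH libraries had 0.193 and 0.183 CPM in batch 1 and 0.258, 0.225 and 0.212 CPM in batch 2. HHH lay above general in batch 1 and overlapped with it in batch 2. The log2 fold change was 0.26 (SE 0.28, adjusted p = 0.703 by edgeR), so that a change was not detectable at this depth.

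BAMBI (ENSG00000095739, chromosome 10, 28677510 to 28682932, plus strand) encodes a transmembrane protein that resembles a type I receptor without the kinase domain, and it is itself known to be induced by BMP and TGF-β. General libraries had 16.6 and 19.8 CPM in batch 1 and 16.0, 17.0 and 13.9 CPM in batch 2. HHH libraries had 28.7 and 24.0 CPM in batch 1 and 18.0, 21.6 and 19.3 CPM in batch 2. HHH exceeded general in both batches without overlap, although the lowest HHH library of batch 2 (18.0 CPM) lay under the highest general library of batch 1 (19.8 CPM). The log2 fold change was 0.41 (SE 0.094, adjusted p = 0.0179 by edgeR), in the opposite direction to the 5 called genes. It no longer passed without HHH batch 1 replicate 2 (adjusted p = 0.0524), without HHH batch 2 replicate 2 (0.0664) or without general batch 2 replicate 3 (0.0609), and with library size as the only scaling its adjusted p was 0.0502. The upstream bases of BAMBI are shown because they held the most matches to both motifs (chr10:28677271-28677520, plus strand):
BAMBI: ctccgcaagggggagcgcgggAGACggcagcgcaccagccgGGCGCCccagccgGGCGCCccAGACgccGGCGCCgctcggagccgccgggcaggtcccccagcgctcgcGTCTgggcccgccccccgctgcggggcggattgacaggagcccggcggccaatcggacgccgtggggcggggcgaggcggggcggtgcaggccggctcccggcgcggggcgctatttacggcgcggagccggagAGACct
There were 3 matches to GGCGCC and 4 to GTCT.

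ID1 (ENSG00000125968, chromosome 20, 31605283 to 31606515, plus strand) encodes an inhibitor of basic helix-loop-helix factors and was lower in every HHH library than in any general library of its batch. General libraries had 61.3 and 52.4 CPM in batch 1 and 89.3, 103 and 102 CPM in batch 2. HHH libraries had 33.0 and 37.9 CPM in batch 1 and 52.2, 77.0 and 72.4 CPM in batch 2. Batch 2 was the higher in both populations, so that the ranges overlapped when batches were pooled. ID1 fell by 0.60 on the log2 scale (SE 0.10, adjusted p = 0.00282 by edgeR). The fold lay just past the limit of 1.5 and fell under it without general batch 1 replicate 1, HHH batch 1 replicate 2, HHH batch 2 replicate 1 or general batch 2 replicate 2 (log2 fold changes -0.58 to -0.52), while the adjusted p was at most 0.011. Similarly, in batch 2 alone it passed the adjusted p (log2 fold change -0.55, SE 0.13, adjusted p = 0.0142) but not the fold. The upstream bases of ID1, as a BMP target, are shown in the same notation (chr20:31605039-31605288, plus strand):
ID1: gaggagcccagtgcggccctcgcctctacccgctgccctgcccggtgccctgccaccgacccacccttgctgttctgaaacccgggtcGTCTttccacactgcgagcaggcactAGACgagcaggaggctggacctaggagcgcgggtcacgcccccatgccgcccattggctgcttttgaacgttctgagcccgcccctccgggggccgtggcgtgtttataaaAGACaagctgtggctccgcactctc
GTCT matched 3 times and GGCGCC was not found in this window.

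ID2 (ENSG00000115738, chromosome 2, 8678845 to 8684461, plus strand) and ID3 (ENSG00000117318, chromosome 1, 23557926 to 23559501, minus strand) encode proteins of the same family as ID1. For ID2, general libraries had 39.2 and 30.8 CPM in batch 1 and 47.5, 41.3 and 52.2 CPM in batch 2. HHH libraries had 29.2 and 30.8 CPM in batch 1 and 33.2, 42.2 and 41.3 CPM in batch 2. Each HHH library lay below the general mean of its batch, but the populations overlapped in both batches. The log2 fold change of ID2 was -0.25 (SE 0.094, adjusted p = 0.14 by edgeR). Of its exonic bases, 6.55% are shared with ID2-AS1, and whether the counting used strand is not given in the sources used here.

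For ID3, general libraries had 84.7 and 71.3 CPM in batch 1 and 35.4, 40.8 and 41.0 CPM in batch 2. HHH libraries had 91.1 and 77.4 CPM in batch 1 and 39.8, 52.1 and 47.2 CPM in batch 2. The populations overlapped in both batches, and the level in batch 1 exceeded that in batch 2 in each population, the reverse of ID1 and BMP7. The log2 fold change of ID3 was 0.19 (SE 0.090, adjusted p = 0.238 by edgeR). In the windows before their starts, ID2 and ID3 each had 2 matches to GTCT and none to GGCGCC. BMP4, with 3 annotated starts, had 2, 0 and 2 matches to GTCT and 1, 0 and 0 to GGCGCC.

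Each batch was also tested on its own. In batch 1, with 2 libraries a population, FST was the gene called (log2 fold change -1.49, SE 0.16, adjusted p = 0.00633 by edgeR), where 0.282% of all genes were called lower. In batch 2, with 3 libraries a population, FST, BMP2, BMP4 and CHRD were called, where 3.93% of all genes were lower and 0.978% higher. The log2 fold changes of BMP2 were -0.77 in batch 1 and -0.80 in batch 2, and those of BMP4 were -0.77 and -0.84. In a test of the interaction between batch and population by edgeR, 0 of the 10 genes passed, with adjusted p from 0.26 to 0.958, and 1 had an unadjusted p under 0.05. Over all genes, 0.777% passed this test. The lowest of these p-values belonged to CHRD. A p above the threshold does not show that the batches were alike. Within both batches, BMP2, BMP4, FST and ID1 had all HHH libraries below all general libraries, as had 5.42% of all genes. BAMBI had all HHH libraries above, as had 3.93% of all genes.

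**Figure D2:**
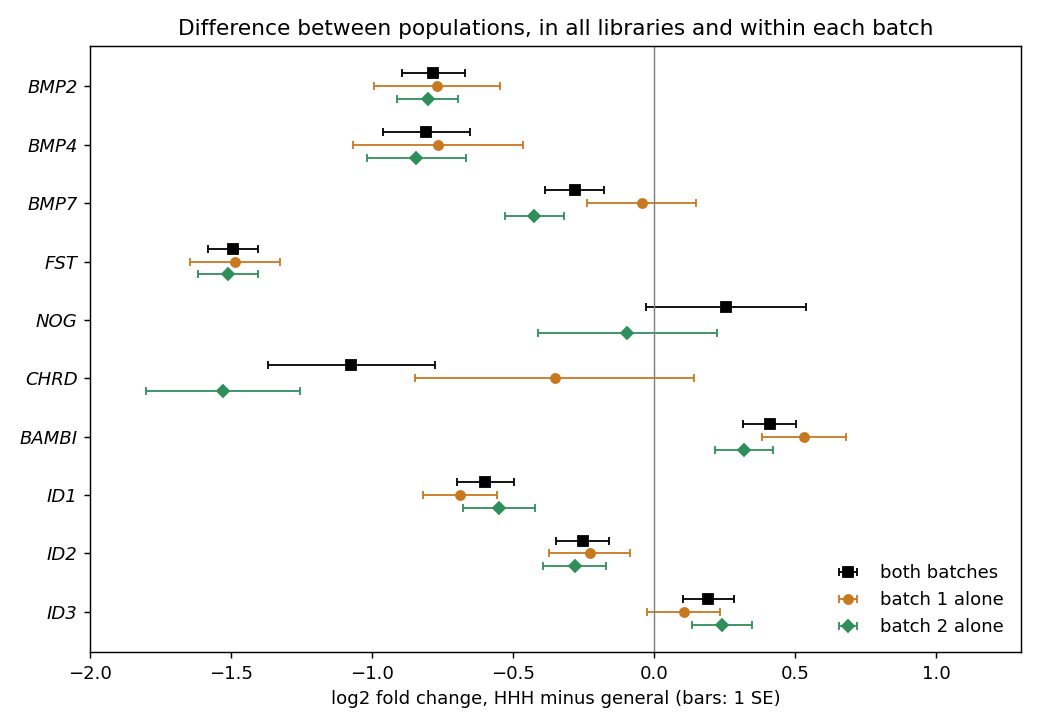
Log2 fold change of HHH over general for each of the 10 genes, with 1 SE, from all libraries (black squares), batch 1 alone (orange circles) and batch 2 alone (green diamonds). The values of BMP2, BMP4 and FST nearly coincide between batches, those of CHRD (-0.35 and -1.53) and BMP7 (-0.04 and -0.43) lie further apart, and NOG had too few counts for a value in batch 1.

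Levels can be compared between genes only per length, for which the log2 RPKM values deposited by the authors were used. A batch mean had been removed from each gene in these values, so that their SD leaves out differences between batches. In the general population, averaged over both batches, ID1 was highest, at 5.96 ± 0.20 log2 RPKM (SD, n = 5). It was followed by ID3 at 4.98 ± 0.20 and ID2 at 4.25 ± 0.20. BAMBI (2.92 ± 0.18) and FST (2.37 ± 0.15) came next. Targets were thus more abundant than the ligands, which had 0.92 ± 0.22 (BMP2), 0.62 ± 0.10 (BMP7) and -0.53 ± 0.26 (BMP4). CHRD (-3.30 ± 0.51) and NOG (-3.58 ± 0.24) were lowest and differed by less than the SD of CHRD. All other neighbors in this order were further apart than the larger of their SDs. The order of ID1 and ID3, and that of BMP2 and BMP7, nevertheless depended on batch, as given below. In HHH, BMP2 (0.00 ± 0.16) came below BMP7 (0.21 ± 0.12) and CHRD (-4.45 ± 0.32) below NOG (-3.33 ± 0.22), while the other places were the same, although ID1 (5.21 ± 0.28) and ID3 (5.03 ± 0.24) there differed by less than either SD. FST in HHH was at 0.74 ± 0.17 log2 RPKM.

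**Figure D3:**
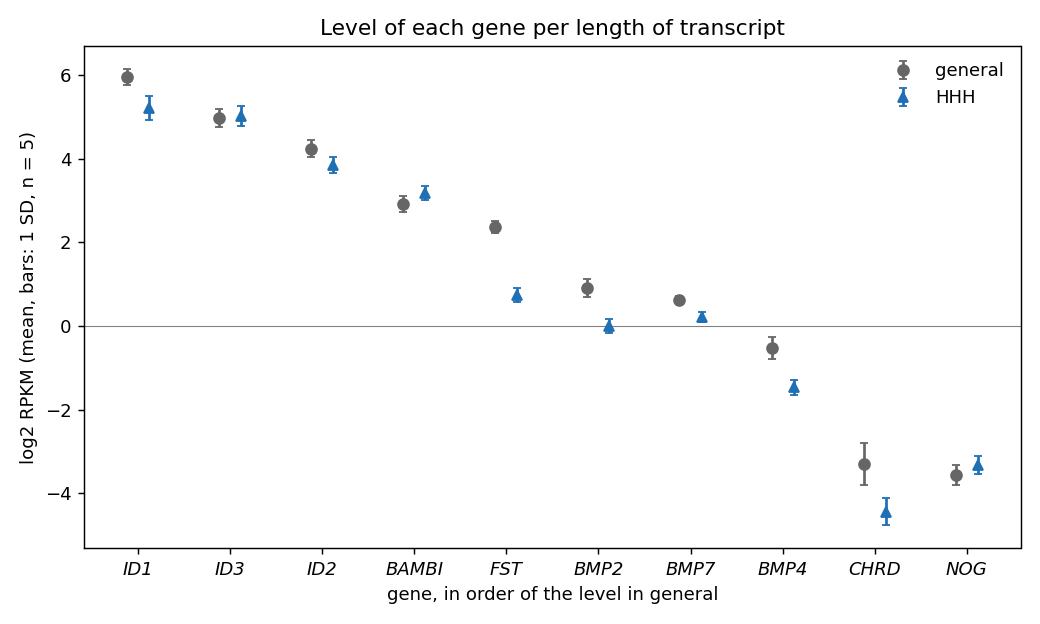
Mean log2 RPKM of each gene (vertical axis, log2 scale, bars of 1 SD, n = 5) in general (grey circles) and HHH (blue triangles), in order of the general level. The 3 ID genes stand at the top, from 4.25 to 5.96 in general, and CHRD and NOG at the bottom, at -3.30 and -3.58.

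To place the 10 genes in their pathway, a list of 75 genes by role was used, which contains them. Of these, 57 were tested, 9 were called lower and 1 higher, against 2.34% and 0.637% of all genes tested. Of the 9, 5 belong to the 10 genes above, so that this count in large part repeats theirs. The others were INHBA, RGMA, GREM1 and ID4. The median log2 fold change of the list was -0.07. Without the fold limit, 10 passed as lower and 4 as higher, against 3.89% and 1.94% of all genes. Among 12 ligands tested, 3 were called lower, which were BMP2, BMP4 and INHBA. INHBA encodes the subunit of activin A, and its log2 fold change was -1.13 (SE 0.30, adjusted p = 0.0376 by edgeR), with means of 0.868 ± 0.196 CPM in general libraries and 0.404 ± 0.245 CPM in HHH libraries (SD, n = 5). This call was lost with the replicate number as a block (log2 fold change -0.94, adjusted p = 0.106) and in 7 of the 10 fits with 1 library left out (adjusted p from 0.0546 to 0.106), all but those without general batch 1 replicate 2, HHH batch 1 replicate 2 or HHH batch 1 replicate 3. The ligands GDF3 and BMP6 had log2 fold changes of 0.52 (adjusted p = 0.0995) and -0.02 (adjusted p = 0.97).

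Among 11 receptors and co-receptors tested, 1 was called higher and 1 lower. BMPR1B, a type I receptor, had means of 1.41 ± 0.114 CPM in general libraries and 2.26 ± 0.392 CPM in HHH libraries (SD, n = 5), and it rose by 0.68 on the log2 scale (SE 0.15, adjusted p = 0.0122 by edgeR). On the deposited log2 RPKM values, where the median of all genes was at -0.12, its adjusted p was 0.111. RGMA, a membrane-anchored BMP co-receptor, averaged 31.2 ± 7.83 CPM in general libraries and 19.9 ± 1.90 CPM in HHH libraries (SD, n = 5), and it fell by 0.62 on the log2 scale (SE 0.13, adjusted p = 0.0108). The fall of RGMA differed between batches, with log2 fold changes of -0.15 (SE 0.13) in batch 1 and -0.93 (SE 0.10) in batch 2, and the test of this difference passed (adjusted p = 0.0411). BMPR1A, a further type I receptor, averaged 96.5 ± 9.67 CPM in general libraries and 96.7 ± 5.39 CPM in those of HHH (SD, n = 5), with a log2 fold change near 0 (0.01, SE 0.079, adjusted p = 0.976). The log2 fold changes of BMPR2, ACVR1, ACVR2A and ACVR2B ran from -0.13 to 0.01.

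Among 16 extracellular antagonists and modulators tested, FST, CHRD and GREM1 were called lower. GREM1 encodes gremlin 1, a secreted BMP antagonist, and it fell by 1.55 on the log2 scale (SE 0.27, adjusted p = 0.00334 by edgeR). Its general libraries had 1.03 and 1.11 CPM in batch 1 and 0.347, 0.316 and 0.183 CPM in batch 2, and its HHH libraries 0.429 and 0.206 CPM in batch 1 and 0.137, 0.104 and 0.0884 CPM in batch 2. HHH lay below general in both batches, and both populations were lower in batch 2. These levels rest on few counts, from 5 to 67 per library. BMP1, a protease known to cleave chordin, passed as lower without reaching the fold limit (log2 fold change -0.56, SE 0.12, adjusted p = 0.00973). CHRDL1 and CER1, further antagonists, had log2 fold changes of 0.02 (adjusted p = 0.93) and 0.51 (adjusted p = 0.104). Exons of other genes overlap 2.48% of the exonic bases of GREM1, 6.52% of those of BMP1, 2.99% of those of INHBA and 3.24% of those of RGMA.

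Among 11 intracellular components and inhibitors, which here include BAMBI, 3 passed as higher without reaching the fold limit. They were BAMBI, the inhibitory SMAD7 (log2 fold change 0.56, SE 0.12, adjusted p = 0.0114 by edgeR) and the SMAD corepressor SKIL (log2 fold change 0.50, SE 0.10, adjusted p = 0.00865). None of these 3 passed on the deposited log2 RPKM values, with adjusted p of 0.221, 0.0584 and 0.224. The receptor-activated SMAD1, SMAD5 and SMAD9 had log2 fold changes from -0.08 to 0.23, and SMAD4 had -0.30 (SE 0.085, adjusted p = 0.0511).

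Among 14 response genes, 7 were tested and ID1 and ID4 were called lower. ID4 encodes a further member of the ID family, and its mean was 16.3 ± 4.46 CPM in general libraries and 7.63 ± 3.04 CPM in HHH libraries (SD, n = 5). It fell by 1.10 on the log2 scale (SE 0.19, adjusted p = 0.00258 by edgeR). In ID4 the HHH libraries had 5.36 and 6.02 CPM in batch 1 and 5.25, 12.2 and 9.33 CPM in batch 2, below all general libraries of their batch (9.76 and 15.5 CPM, and 15.9 to 21.9 CPM). By these thresholds ID1 and ID4 were called lower, while ID2 and ID3 did not pass. The value of ID2 was also negative (-0.25) and that of ID3 positive (0.19). Differences between the ID genes were not tested. The other 7 response genes, MSX1, MSX2, HAND1, GATA2, GATA3, TFAP2A and DLX5, which are induced by BMP in many tissues, were too low to be tested, with population means from 0.00346 to 0.226 CPM.

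**Figure D4:**
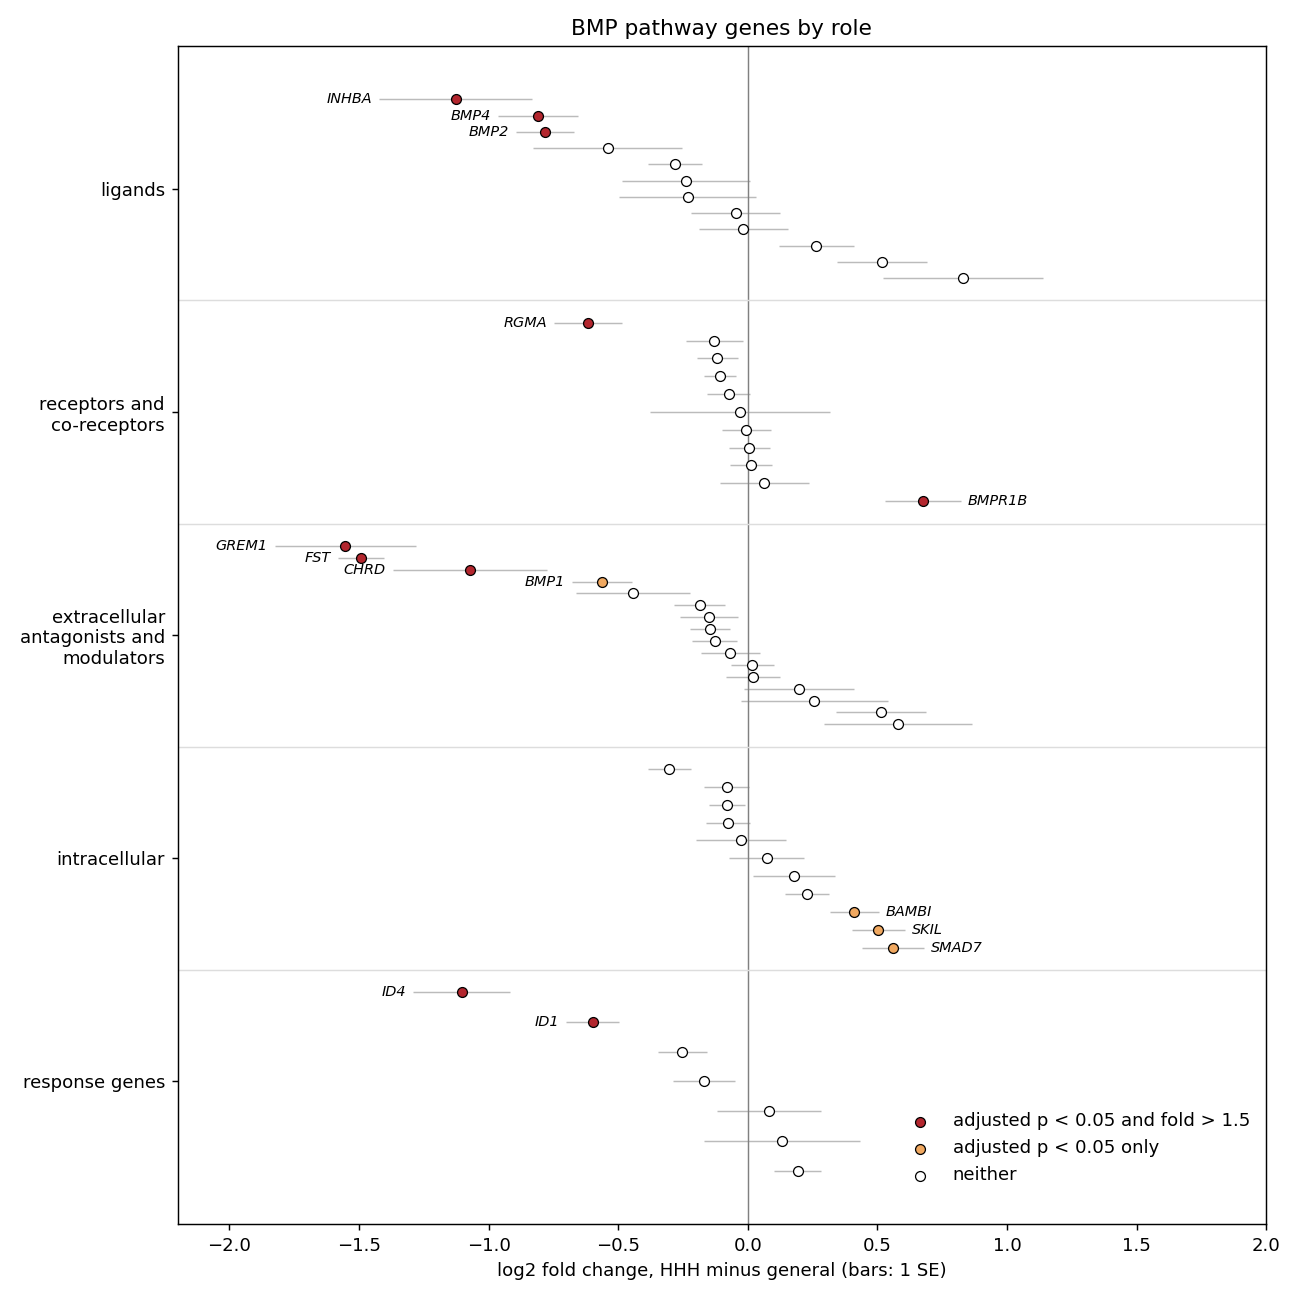
Log2 fold change of HHH over general (horizontal axis, bars of 1 SE) for the 57 tested genes of the BMP pathway list, in 5 roles, with filled red points for genes called and orange points for genes that passed the adjusted p alone. Of the 10 called genes 9 lie on the left, and the orange points of BAMBI, SMAD7 and SKIL lie on the right.

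For each of the 5 called genes, the 3 genes with the most similar pattern over the 10 libraries were found among 16969 genes with at least 1 CPM, by the root mean square difference of log2 CPM after the batch means were removed. Near BMP2 were TGFB2 (difference 0.10), PCDH18 and IGFBP3 (0.13 each), and near BMP4 were MEGF10, TNFRSF11A and BMP2 (0.15 to 0.16). Near FST were FEZ1 (0.13), GPC3 (0.14) and OTX2 (0.15), whose log2 fold changes were -1.35, -1.34 and -1.47. Similar fold changes are built into this choice, since the distance includes the difference between populations. Near ID1 were PAK3 (0.09), CDKL2 and ACBD7 (0.11 each). For CHRD the closest were H19, ADRA2A and SCUBE3, at differences of 0.27 to 0.29.

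Markers of other cell types were examined beside these results, within each batch, and their part in them was not tested. Of 10 markers of amnion or trophoblast, which BMP induces in hESC, 3 exceeded 1 CPM in each population. The sum of the list was 14.0 to 17.1 CPM in general and 11.4 to 11.6 CPM in HHH in batch 1, and 18.9 to 22.0 CPM and 12.9 to 15.4 CPM in batch 2. It was thus lower in HHH in both batches without overlap, in the same direction as the 5 called genes. Most of this sum was KRT7 (means of 7.86 CPM in general and 4.54 CPM in HHH) and IGFBP3 (7.11 and 3.97 CPM). KRT7 (log2 fold change -0.76, adjusted p = 0.00149 by edgeR) and IGFBP3 (-0.85, adjusted p = 0.00125) were called lower. GABRP went the other way and passed as higher (0.57, adjusted p = 0.0136 by edgeR), short of the fold limit. Its HHH libraries lay above the general libraries in both batches. VTCN1, at 0.402 CPM in general and 0.201 CPM in HHH, did not pass (-0.99, adjusted p = 0.0663), although it did in batch 2 alone (-1.42, adjusted p = 0.0166). A further 5 markers, CDX2, TFAP2B, CGA, HAND1 and GATA3, had means of at most 0.0632 CPM, near or under the level of 3 counts. ISL1 had means of 0.0681 CPM in general and 0.0996 CPM in HHH, above that level in some libraries, and was too low to be tested.

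Of 8 early neural markers, 6 were tested. LHX5 (log2 fold change -5.57, adjusted p = 1.63e-06 by edgeR), ZIC1 (-2.46, adjusted p = 0.000283) and SOX1 (-1.39, adjusted p = 0.0391) were called lower. SIX6 had a positive value (1.05, adjusted p = 0.0662), PAX6 had -0.14 (adjusted p = 0.665) and NES had -0.23 (adjusted p = 0.384). SIX3 and LHX2 were too low to be tested. SIX3 averaged 0.516 CPM in general and 0.0209 CPM in HHH, and its HHH libraries lay below the general libraries in both batches. LHX2 averaged 0.0671 CPM in general and 0.0235 CPM in HHH, with overlap in both batches. The call of SOX1 held in 2 of the 10 fits with 1 library left out, those without general batch 1 replicate 2 or HHH batch 1 replicate 3, and in the other 8 the adjusted p ran from 0.0615 to 0.123. The sum of the list, most of it NES, went opposite ways in the batches without overlap. It was 192 to 225 CPM in general and 229 to 246 CPM in HHH in batch 1, and 230 to 274 CPM and 130 to 190 CPM in batch 2.

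Of 7 markers of primitive streak and mesoderm, 2 were tested and neither passed, MIXL1 (log2 fold change 0.33, adjusted p = 0.363 by edgeR) and TBX6 (-0.57, adjusted p = 0.0841). TBXT, which was too low to be tested, averaged 0.350 CPM in general and 0.102 CPM in HHH, and its HHH libraries lay below the general libraries in both batches. The sum of the list overlapped in batch 1 (1.51 to 1.82 CPM in general and 1.35 to 1.67 CPM in HHH) and was lower in HHH in batch 2 (3.02 to 3.23 CPM and 2.02 to 2.33 CPM). The 6 endoderm markers were too low to be tested. Their sum was 0.199 to 0.956 CPM in general and 1.58 to 1.76 CPM in HHH in batch 1, most of the latter FOXA2, and 0.0834 to 0.139 CPM and 0.0354 to 0.275 CPM in batch 2.

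Of 6 fibroblast markers, COL1A1 was called lower (log2 fold change -0.94, adjusted p = 0.00334 by edgeR). COL1A2, which made up most of the sum, had -0.28 (adjusted p = 0.106) and POSTN had 0.34 (adjusted p = 0.433), and DCN, LUM and COL3A1 had means of at most 0.0485 CPM. The sum was 116 to 125 CPM in general and 103 to 119 CPM in HHH in batch 1, with overlap, and 134 to 139 CPM and 79.5 to 101 CPM in batch 2, with none. Of 10 immediate early genes, which cell dissociation is known to induce, IER3 was called higher (0.74, adjusted p = 4.32e-05) and EGR1 lower (-1.19, adjusted p = 0.000288). Their sum was higher in HHH in batch 1 (137 to 138 CPM in general and 169 to 178 CPM in HHH) and overlapped in batch 2 (142 to 158 CPM and 142 to 174 CPM).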

How the data were processed

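RNA-seq of 5 general and 5 HHH libraries was analysed, with population, batch and replicate taken from the titles. The authors deposited fragment counts per Ensembl gene without normalization, and a second table of scores, which are log2 RPKM values after TMM scaling with batch means removed. Its batch means were equal to within 9.2e-14 over 27641 genes. The submitters' processing notes list CASAVA 1.8.2, R 3.2.2, limma 3.26.9 and GRCh37, and the aligner, counter and annotation are not given in the sources used here. Identifiers were matched to GENCODE 44 (GRCh38), and 88.5% matched.

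Genes were filtered with filterByExpr (minimum count 10), scaled by TMM and tested in edgeR 4.0.16 (R 4.3.3) by the two-sided quasi-likelihood F test with batch as an additive term, Benjamini-Hochberg adjusted over 23552 genes. The standard error is the log2 fold change divided by the square root of F. Calls needed an adjusted p under 0.05 together with a fold over 1.5. Interaction was fitted in the same way with its term added. Each batch alone was fitted without a batch term and adjusted over its own tested genes, 23720 in batch 1 and 24025 in batch 2. Depths and the level of 3 counts are given with the results.

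The 10 genes and all lists were chosen with earlier results of these data known. Named genes were the 10 genes, other called genes of the pathway list, receptors and SMADs by range, called markers, and 3 similar genes for each called member. GDF3, BMP6, BMPR1A, CHRDL1, CER1, BMP1, SMAD7, SKIL, SMAD4, SKI, markers that were not called and the genes too low to be tested were named after their values were seen. GDF2 had no counted identifier. Motifs were searched in the 250 bases before each RefSeq start (GRCh38.p14).

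Within a batch, 4 pairs of general and HHH libraries carry the same replicate number. In batch 2, deviations from the mean of population and batch correlated at 0.239, 0.143 and 0.113 in these pairs. Other pairs of batch 2 had values from -0.126 to -0.00512, but centering on the means ties these values together. In batch 1, replicate 2 gave 0.113, and so did general replicate 1 with HHH replicate 3, which centering of 2 libraries forces. Whether the numbers pair the libraries was thus not settled. The replicate block was an alternative. Others were no batch term, RLE, upper quartile or no scaling factors, other filters, DESeq2 1.42.0, limma 3.58.1 with voom or on the deposited log2 RPKM, small RNAs and mitochondrial genes left out, other thresholds, and each library left out in turn.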

Additional observations from a re-analysis of the deposited data

Results flagged for a closer look

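In 4 of 54 groups of 5 libraries, 1 library lay far from the others by Dixon's ratio (its gap to the nearest library over the whole range). For 1 homogeneous sample, chance flags about 1 group in 20. Each group here pooled both batches, so that this rate need not apply, and all flagged libraries were of batch 1. For BMP2, general batch 1 replicate 1 was low at 4.87 CPM, with a ratio of 0.847. For CHRD, HHH batch 1 replicate 3 was high at 0.504 CPM, with a ratio of 0.841, and without it the log2 fold change was -1.32 (edgeR adjusted p = 0.0109). For INHBA, HHH batch 1 replicate 2 was high at 0.836 CPM, with a ratio of 0.811, and without it the log2 fold change was -1.55 (edgeR adjusted p = 0.00195). For LHX5, HHH batch 1 replicate 3 was high at 0.366 CPM, with a ratio of 0.715.

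For 3 genes outside the 10, the difference between populations itself differed between batches in the interaction test of edgeR. The log2 fold change of RGMA in batch 2 minus that in batch 1 was -0.78 (adjusted p = 0.0411). For the SMAD corepressor SKI it was -1.04 (adjusted p = 0.0142), with log2 fold changes of 0.81 (SE 0.13) in batch 1 and -0.23 (SE 0.10) in batch 2. For COL1A1 it was -1.01 (adjusted p = 0.0315), with -0.34 (SE 0.16) in batch 1 and -1.35 (SE 0.11) in batch 2.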

How the results depend on the processing

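Among the 10 genes, no alternative turned the direction of a difference. FST and BMP2 passed the adjusted p under every alternative run. Without the batch term 2 of the 10 genes were called (FST and BMP2), 2 of the pathway list and 151 of all genes, compared with 5, 10 and 701 in the fit with batch. With a fold over 2 these counts were 2, 5 and 265. At an adjusted p under 0.01, 6 pathway genes and 440 genes were called. With no filter on low counts 1114 genes were called, and with no fold limit 1373. In batch 1 alone DESeq2 called 2 of the 10 genes, compared with 1. With 1 library left out, 3 to 5 of the 10 genes were called, 5 to 13 pathway genes and 523 to 963 of all genes. The count of 3 arose without HHH batch 1 replicate 2, without HHH batch 2 replicate 1 or without general batch 2 replicate 2, where CHRD missed the adjusted p (0.0884, 0.135 and 0.066) and ID1 the fold. The pathway count fell to 5 without HHH batch 2 replicate 1 and to 6 without general batch 2 replicate 2. CHRD also missed the threshold with library size as the only scaling (0.0726) and with voom (0.0653). DESeq2 gave no adjusted p for NOG. The replicate block called 819 genes and 5 of the 10, and among the genes named it ended the call of INHBA alone. On the deposited log2 values 42 genes were called higher and 785 lower, compared with 150 and 551 on counts, and the median of all genes moved to -0.12. From the counts over the exonic length of GENCODE 44, averaged over both batches, the level of BMP7 was 0.73 in place of 0.62. The order of the 10 genes in general was the same in this average. Depth limits CHRD and NOG, with 5 to 60 counts per library, and also GREM1 (5 to 67) and INHBA (10 to 69). Where a call changed, the cause was not tested.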
